A study of Mus musculus with 11 samples.

Results

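The 9 genes described here are regulators and surface or lysosomal markers of monocytes and macrophages: Irf8, Klf4, Csf1r, Ccr2, Cx3cr1, Ly86, Cd14, Ly6c2 and Cd68. They were taken by symbol from the 53700 genes of the deposited count table, each symbol matched 1 row, and all 9 passed the filter on low counts that 16639 genes passed. Bulk RNA sequencing had been done on short-term haematopoietic stem cells (ST-HSC) sorted from the bone marrow of mice that received marrow of a Flt3-ITD, TET2 KO acute myeloid leukaemia. All 4 groups carried that leukaemia, and the tissue is labelled C57BL/6j throughout. The groups were CXCL12 KO hosts (titled Cre_pos) given cytarabine, doxorubicin and quizartinib (KO treated, 3 libraries: 257, 263 and 276), CXCL12 WT hosts (titled Cre_neg) given the same drugs (WT treated, 3 libraries: 252, 262 and 266), CXCL12 KO hosts given vehicle (KO vehicle, 2 libraries: 249 and 275) and CXCL12 WT hosts given vehicle (WT vehicle, 3 libraries: 240, 253 and 265). CXCL12 is a chemokine made by marrow stroma, cytarabine and doxorubicin act on DNA, and quizartinib inhibits the FLT3 kinase. The labels give neither the cells in which Cre was active, nor ages, nor whether cells of the hosts themselves were gated out, nor whether each library is from a different animal. The p-values therefore describe the spread among these libraries, which may be technical.

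Monocytes arise in the marrow from myeloid progenitors under the transcription factors PU.1 (gene Spi1) and IRF8, with KLF4 acting downstream of IRF8 in the mouse. The cytokines CSF1 and IL-34 act through CSF1R to keep monocytes and macrophages alive. Classical mouse monocytes carry Ly6C and CCR2 and leave the marrow through CCR2, while patrolling monocytes carry more CX3CR1. The same genes are also transcribed in progenitors that begin to differentiate.

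Of the 9 genes, 5 had lower levels in each KO treated library than in any WT treated library, namely Irf8, Ly86, Ly6c2, Cx3cr1 and Cd68. Their fitted levels in KO treated samples were 0.333 (Ly86) to 0.595 (Cx3cr1) of those in WT treated samples. Over all genes tested, 9.56% were lower without overlap in the same comparison and 19.3% did not overlap in either direction. No gene of the 9 passed the test in any of the 7 contrasts at an adjusted p of 0.05, and neither did any other gene (0% of 16639). For KO treated against WT treated samples, edgeR gave 2 of the 9 an unadjusted p under 0.05, as for 10.6% of all genes, while DESeq2 called 0 of the 9 (Cd14 received no adjusted p) and 1.5% of all genes. limma voom with quality weights called 3 of the 9 as lower (Ly86, Ly6c2 and Cd68), against 11.9% of all genes called lower and 25.8% called in either direction. In bulk samples, fewer cells of a type and less RNA per cell cannot be told apart.

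The libraries held 8.13 to 31.1 M counts assigned to genes, so 1 count was worth at most 0.123 CPM (counts scaled to library size with TMM factors). They differed in how a gene's level related to the length of its longest transcript. The Spearman rho over 16586 genes was -0.21, 0.32 and 0.34 in KO treated libraries 257, 263 and 276, and -0.29 to -0.38 in WT treated libraries. It was 0.22 and 0.23 in KO vehicle libraries and 0.03 to 0.10 in WT vehicle libraries. Library 257 stood with the WT treated libraries in this respect, and libraries 253 and 265 had the fewest genes with a count, 13589 and 14206. Fold changes are therefore also given with the length trend removed where this matters. Of the stem cell markers, Kit, Ly6a, Cd34, Flt3 and Cd48 had counts in every library, with Ly6a at 1.11 CPM in library 253, and Slamf1 was at 0 in all 3 WT vehicle libraries. The labels do not describe the sort gate.

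The 5 genes that were lower in each KO treated library are shown here by the 250 bases before their RefSeq start site (GRCm38.p6, 5′ to 3′ on the gene's strand), because they had the same direction in treated hosts. Capitals mark GAGGAA, the purine-rich core bound by PU.1.
Irf8, chr8:120736108-120736357, plus strand: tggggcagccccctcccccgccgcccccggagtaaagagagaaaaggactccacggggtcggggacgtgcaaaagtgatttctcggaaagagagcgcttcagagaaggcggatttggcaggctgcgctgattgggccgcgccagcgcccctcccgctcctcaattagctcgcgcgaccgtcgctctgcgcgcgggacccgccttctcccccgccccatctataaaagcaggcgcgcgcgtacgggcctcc
Ly86, chr13:37345095-37345344, plus strand: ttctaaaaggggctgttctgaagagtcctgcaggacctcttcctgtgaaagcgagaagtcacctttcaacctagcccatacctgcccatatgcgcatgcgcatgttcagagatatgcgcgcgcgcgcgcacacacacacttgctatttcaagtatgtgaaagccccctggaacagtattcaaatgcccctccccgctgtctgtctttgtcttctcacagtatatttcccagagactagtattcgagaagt
Ly6c2, chr15:75111972-75112221, minus strand: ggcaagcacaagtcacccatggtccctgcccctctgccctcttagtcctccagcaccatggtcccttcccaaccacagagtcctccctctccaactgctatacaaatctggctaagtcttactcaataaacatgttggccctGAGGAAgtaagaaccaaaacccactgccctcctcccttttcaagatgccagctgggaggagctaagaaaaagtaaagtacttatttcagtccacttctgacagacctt
Cx3cr1, chr9:120068297-120068546, minus strand: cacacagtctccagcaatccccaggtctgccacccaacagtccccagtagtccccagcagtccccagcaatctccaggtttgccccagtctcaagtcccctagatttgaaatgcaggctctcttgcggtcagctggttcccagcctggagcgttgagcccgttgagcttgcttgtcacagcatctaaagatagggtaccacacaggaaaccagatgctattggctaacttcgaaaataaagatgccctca
Cd68, chr11:69666171-69666420, minus strand: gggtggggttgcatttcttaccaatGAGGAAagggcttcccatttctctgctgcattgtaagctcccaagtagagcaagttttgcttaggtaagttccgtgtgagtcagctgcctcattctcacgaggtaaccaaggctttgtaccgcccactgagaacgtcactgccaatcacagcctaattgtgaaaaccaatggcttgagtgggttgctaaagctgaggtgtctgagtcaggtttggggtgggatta
A RefSeq window was used for 7 of the 9 genes (9 windows, with a second start each for Irf8 and Ly6c2). On either strand, GAGGAA was found in 3 of the 9 windows (of Cd68 and Ly6c2), against 23.3% of all 32841 promoter windows of this length. The composite motif GGAANNGAAA, which PU.1 and IRF8 bind together and which can overlap GAGGAA, was in 0 of the 9 windows and in 2.30% of all windows. The interferon-type repeat GAAANNGAAA was in 0 of the 9 windows and in 2.98% of all windows. The C/EBP-type sequence TTGCNNAA was found once, in Cd68, 43 to 36 bases before the start, and in 9.57% of all windows. Irf8 had TATAAA 31 to 26 bases before its start, a sequence in 12.4% of all windows. The base composition ran from 49.2% GC in Cd68 to 67.2% GC in Irf8 among the 5 printed windows. A match describes the letters only, and the absence of one covers only these 250 bases.

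Per kilobase of the longest transcript, Ly6c2 had the highest median level of the 9 genes, 834 CPM per kb over the 11 libraries. Irf8 followed at 119, Cd68 at 81.9, Ly86 at 47.1, Ccr2 at 23.1 and Csf1r at 10.7 CPM per kb. Cd14, Klf4 and Cx3cr1 were the lowest, with medians of 3.87, 3.50 and 3.23 CPM per kb. The order of these last 3 cannot be read, since their levels in single libraries varied more than the gaps between their medians. Between libraries, the highest level was 31.3 times the lowest for Ly86 and 22.9 times for Cd68, which without library 265 became 8.89 and 4.88 times. It was 3.49 times the lowest for Irf8 and 3.67 times for Cd14, with or without that library. Together the 9 genes took 0.120% (263) to 0.488% (252) of all gene counts, of which Ly6c2 alone made up 36.8% (263) to 81.9% (266).

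**Figure D1:**
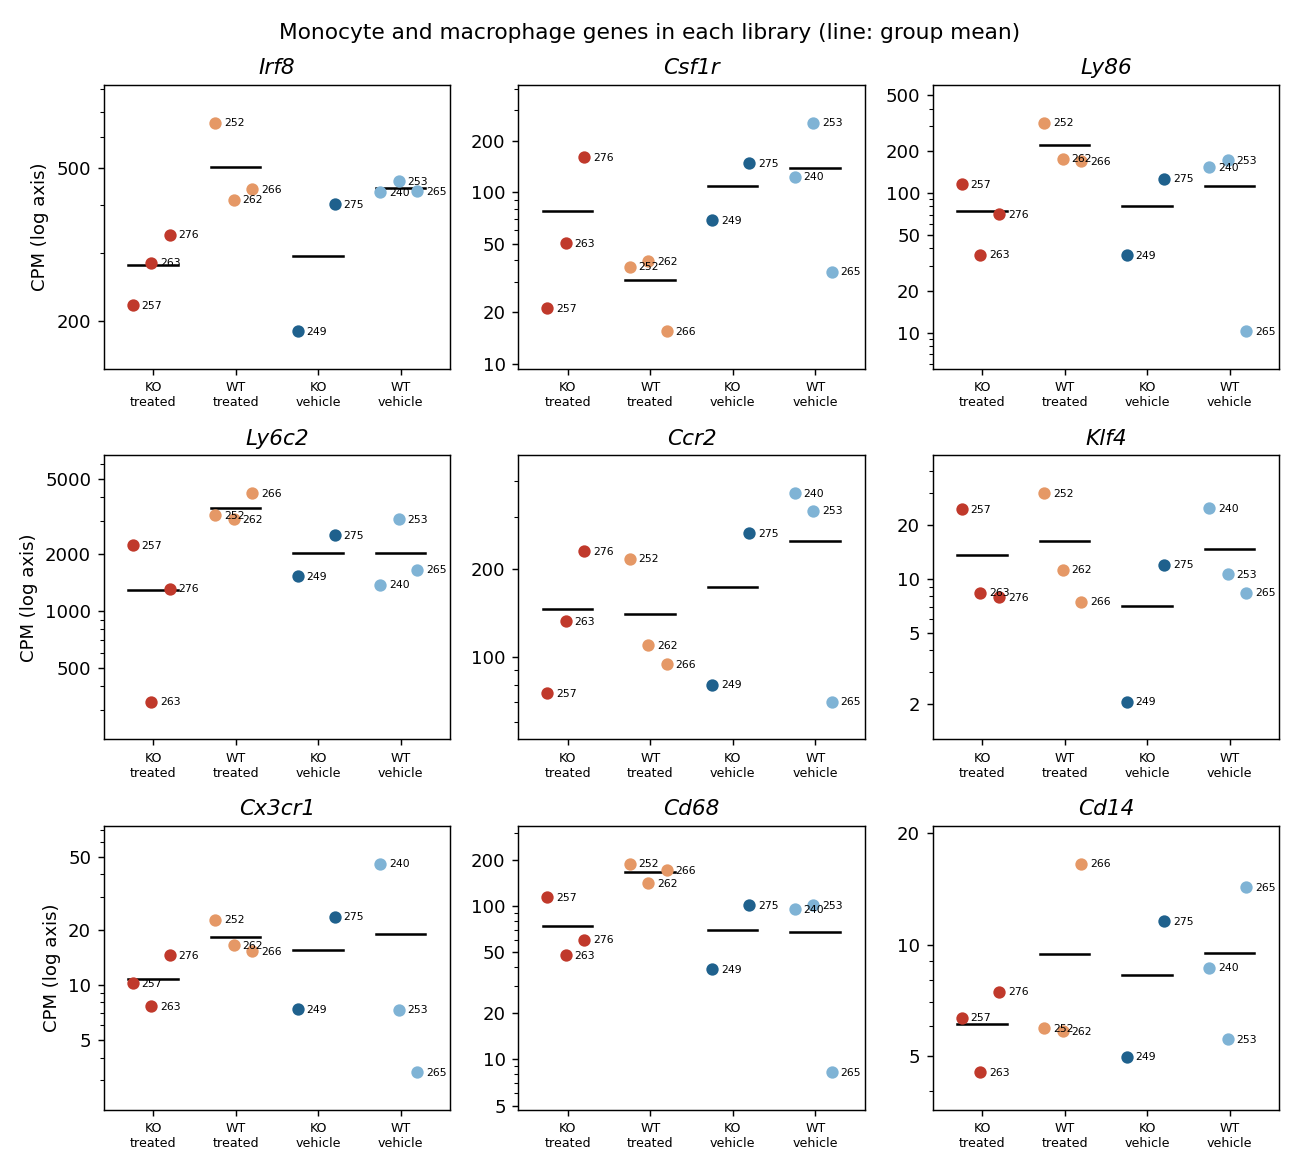
Level of each gene in CPM (log axis) in the 11 libraries, 1 panel per gene, points numbered by library and a line at each group's mean. For Irf8, Ly86, Ly6c2, Cx3cr1 and Cd68 the 3 KO treated points lie below the 3 WT treated points, while for Csf1r, Ccr2, Klf4 and Cd14 these groups overlap.

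Irf8 encodes the transcription factor that directs progenitors towards monocytes and dendritic cells and away from granulocytes. It had 219, 283 and 335 CPM in KO treated libraries 257, 263 and 276, against 656, 413 and 439 CPM in WT treated libraries 252, 262 and 266. It had 188 and 403 CPM in KO vehicle libraries 249 and 275, against 433, 461 and 435 CPM in WT vehicle libraries 240, 253 and 265. All 5 KO libraries were thus below all 6 WT libraries, as for no other of the 9 genes. The gap was small, from 403 CPM in library 275 to 413 CPM in library 262. How many of all genes split this way was not counted, so the split is no result about Irf8. Group means were 279 ± 58.2 CPM for KO treated samples and 503 ± 133 CPM for WT treated samples (SD, n = 3 each), and 295 ± 152 CPM in KO vehicle (n = 2) and 443 ± 15.5 CPM in WT vehicle samples (n = 3). The log2 fold change was -0.85 ± 0.34 (SE) in KO treated against WT treated samples, with an unadjusted p of 0.029 and an adjusted p of 0.435 in edgeR's quasi-likelihood test. In KO vehicle against WT vehicle it was -0.58 ± 0.38 (SE), with an adjusted p of 0.807. Averaged over vehicle and treatment, the KO effect was -0.72 ± 0.26 (SE), with an unadjusted p of 0.017 and an adjusted p of 0.384. With the length trend removed the 3 values were -1.15, -1.03 and -1.09, with adjusted p of 0.907, 0.554 and 0.302 in edgeR.

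Klf4 encodes a zinc finger factor needed for Ly6C-high and patrolling monocytes in the mouse. Its levels were low, at 24.5, 8.35 and 7.93 CPM in KO treated libraries 257, 263 and 276, against 30.2, 11.2 and 7.43 CPM in WT treated libraries 252, 262 and 266. They were 2.06 and 11.99 CPM in KO vehicle libraries 249 and 275, against 24.9, 10.6 and 8.37 CPM in WT vehicle libraries 240, 253 and 265. Each group with 3 libraries held 1 library well above the others, namely 257, 252 and 240, and the groups overlapped in all comparisons. The lowest level, in library 249, rested on 46 counts.

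Csf1r encodes the receptor for CSF1 and IL-34 and did not share the direction of the 5 genes named above. It had 21.0, 50.4 and 160 CPM in KO treated libraries 257, 263 and 276, against 36.8, 39.7 and 15.4 CPM in WT treated libraries 252, 262 and 266. It had 68.5 and 147 CPM in KO vehicle libraries 249 and 275, against 123, 255 and 34.4 CPM in WT vehicle libraries 240, 253 and 265. The lowest of these 11 values was thus in a WT treated library, and the 3 WT treated values were below those of both KO vehicle libraries and of 2 of the 3 WT vehicle libraries. The log2 fold change of WT treated against WT vehicle samples was -2.16 ± 0.81 (SE), with an unadjusted p of 0.020 and an adjusted p of 0.209. The groups overlapped through library 265 alone, and with the length trend removed the value was -2.25. Averaged over both hosts, the treatment effect was -1.32 ± 0.58 (SE), with an unadjusted p of 0.042 and an adjusted p of 0.299. The log2 difference between KO treated and WT treated samples was 1.33, with a 95% interval of -0.39 to 3.05, and 0.73 with the length trend removed. Library 257 accounted for the overlap there: without it, the other 2 KO treated libraries were above all 3 WT treated libraries, where 52.3% of all genes did not overlap in either direction. Reads of Csf1r may include some of Hmgxb3, which overlaps it on the opposite strand, since the library kit does not keep strand.

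Ccr2 encodes the receptor by which classical monocytes leave the marrow. It had 75.0, 133 and 229 CPM in KO treated libraries 257, 263 and 276, against 217, 109 and 94.4 CPM in WT treated libraries 252, 262 and 266. It had 80.2 and 265 CPM in KO vehicle libraries 249 and 275, against 363, 316 and 70.2 CPM in WT vehicle libraries 240, 253 and 265. Groups overlapped in each comparison, and the difference between KO treated and WT treated samples was 0.05 on the log2 scale, with a 95% interval of -1.35 to 1.46. With the length trend removed its sign turned, to -0.54.

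Cx3cr1 encodes the fractalkine receptor of patrolling monocytes. It was among the lowest of the 9 genes, with 10.2, 7.61 and 14.5 CPM in KO treated libraries 257, 263 and 276, against 22.6, 16.5 and 15.2 CPM in WT treated libraries 252, 262 and 266. The 2 groups did not overlap, but the gap between 14.5 and 15.2 CPM was small beside the spread in either. It had 7.34 and 23.4 CPM in KO vehicle libraries 249 and 275, against 45.9, 7.29 and 3.33 CPM in WT vehicle libraries 240, 253 and 265. The lowest value, in library 265, rested on 27 counts. The log2 fold change in KO treated against WT treated samples was -0.75 ± 0.84 (SE), with an adjusted p of 0.822 in edgeR. With the length trend removed it was -1.20, with an adjusted p of 0.983. A predicted gene, Gm33858, overlaps it on the opposite strand.

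Ly86 encodes MD-1, the secreted partner of the B cell and myeloid surface protein CD180, and is a marker of early monocyte and dendritic commitment. It had 115, 36.0 and 70.1 CPM in KO treated libraries 257, 263 and 276, against 320, 176 and 170 CPM in WT treated libraries 252, 262 and 266. It had 35.9 and 127 CPM in KO vehicle libraries 249 and 275, against 152, 172 and 10.2 CPM in WT vehicle libraries 240, 253 and 265. Without library 265, which held 83 counts of the gene, both KO vehicle libraries were below both WT vehicle libraries, where 34.6% of all genes did not overlap in either direction. Group means were 73.8 ± 39.7 CPM for KO treated samples and 222 ± 84.8 CPM for WT treated samples (SD, n = 3 each). The log2 fold change between them was -1.59 ± 0.82 (SE), with an adjusted p of 0.525 in edgeR. limma voom with quality weights gave -2.22 with an adjusted p of 0.012. Removing the length trend changed the edgeR value little, to -1.58 with an adjusted p of 0.938.

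Cd14 encodes the lipopolysaccharide co-receptor that is used to define human monocytes. It stayed low in these cells, with 6.34, 4.51 and 7.45 CPM in KO treated libraries 257, 263 and 276, against 5.94, 5.82 and 16.6 CPM in WT treated libraries 252, 262 and 266. It had 4.97 and 11.6 CPM in KO vehicle libraries 249 and 275, against 8.66, 5.54 and 14.3 CPM in WT vehicle libraries 240, 253 and 265. Libraries 266 and 265 had the highest values, and the groups overlapped in all comparisons.

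Ly6c2 encodes one of the proteins that form the Ly6C antigen of classical monocytes, which is also present on other marrow cells. It had 2235, 332 and 1316 CPM in KO treated libraries 257, 263 and 276, against 3210, 3066 and 4210 CPM in WT treated libraries 252, 262 and 266. It had 1529 and 2510 CPM in KO vehicle libraries 249 and 275, against 1378, 3058 and 1652 CPM in WT vehicle libraries 240, 253 and 265. The 3 WT treated values were the highest of the 11, though the lowest of them was almost level with library 253, and with DESeq2 size factors WT treated and WT vehicle samples overlapped. Group means were 1294 ± 952 CPM for KO treated samples and 3495 ± 623 CPM for WT treated samples (SD, n = 3 each). The log2 fold change was -1.43 ± 0.59 (SE), with an unadjusted p of 0.032 and an adjusted p of 0.443 in edgeR. It was -2.72 with an adjusted p of 0.0018 in limma voom with quality weights, and -2.09 with an adjusted p of 0.058 in edgeR without library 257. Against WT vehicle samples, the WT treated samples differed by 0.78 ± 0.58 (SE), with an adjusted p of 0.493, and by 0.38 with the length trend removed, where the groups overlapped. Ly6c1 is a close copy that shares 3.603% of the 100-base windows of Ly6c2, and Ly6c1 itself had at most 2.78 CPM in any library. Of the 50-base windows of Ly6c2, 13.26% occurred in transcripts of other genes. Reads at several places were not counted for any gene, and their part in these levels was not tested.

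Cd68 encodes a lysosomal glycoprotein of macrophages. It had 114, 47.6 and 60.2 CPM in KO treated libraries 257, 263 and 276, against 189, 140 and 171 CPM in WT treated libraries 252, 262 and 266. It had 38.7 and 101 CPM in KO vehicle libraries 249 and 275, against 94.98, 101 and 8.25 CPM in WT vehicle libraries 240, 253 and 265. The WT treated values were above those of all other libraries. The log2 fold change was -1.17 ± 0.71 (SE) in KO treated against WT treated samples, with an adjusted p of 0.589 in edgeR, and -1.58 with an adjusted p of 0.014 in limma voom. It was 1.29 ± 0.71 (SE) in WT treated against WT vehicle samples, with an adjusted p of 0.351. Cd68 has the shortest longest transcript of the 9 genes, 1230 bases, and with the length trend removed these values were -0.70 and 0.24, the second with overlapping groups.

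**Figure D2:**
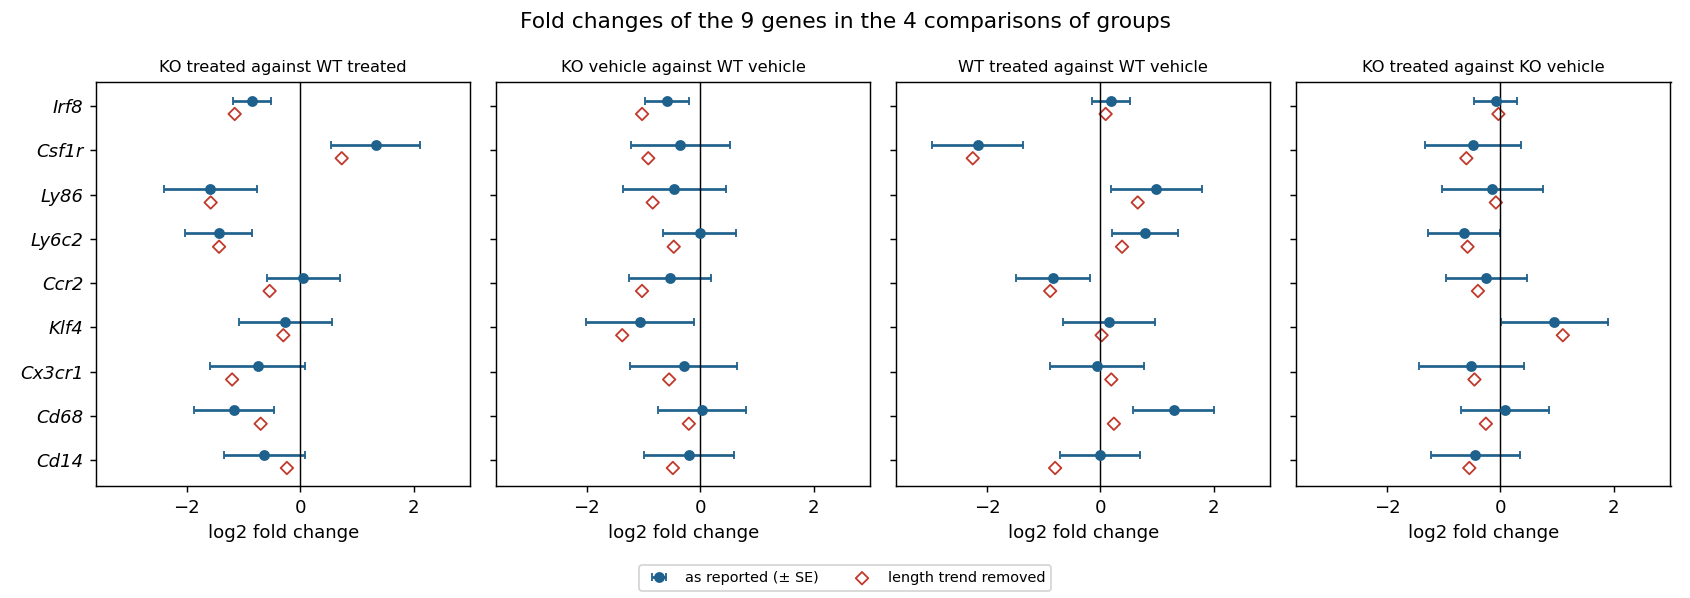
Log2 fold changes of the 9 genes in the 4 comparisons between groups, with filled points and bars for the fitted value ± SE and open diamonds for the value with the length trend removed. In KO treated against WT treated samples 7 of 9 values are negative and Csf1r stands apart at 1.33. In WT treated against WT vehicle samples Csf1r is at -2.16 and Cd68 at 1.29, which becomes 0.24 without the length trend.

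In KO treated against WT treated samples the 9 fold changes had a median of -0.75, against 0.10 over all genes tested, and 7 of 9 were negative, against 46.1% of all genes. With the length trend removed 8 of 9 were negative, Ccr2 being the one that turned. In KO vehicle against WT vehicle samples 8 of 9 were negative, with a median of -0.35 against 0.00 over all genes. There only Irf8 did not overlap between groups, where 7.47% of all genes were lower and 13.2% higher without overlap, 20.7% in all. By edgeR none of the 9 had an unadjusted p under 0.05 there, against 6.78% of all genes. The difference between these comparisons, the interaction, had no unadjusted p under 0.05 for any of the 9, against 6.31% of all genes, and its smallest adjusted p was 0.792, for Ly6c2 at -1.43. The largest positive interaction was 1.68, for Csf1r.

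In WT treated against WT vehicle samples 5 of 9 fold changes were positive and 4 negative, with a median of 0.15 against 0.09 over all genes. Ly6c2 and Cd68 were higher and none lower without overlap, where 17.5% of all genes were higher and 10.1% lower, 27.7% in all. Only Csf1r had an unadjusted p under 0.05, where 18.2% of all genes did. In KO treated against KO vehicle samples none of the 9 was without overlap, against 22.4% of all genes (12.3% higher and 10.1% lower). By edgeR none had an unadjusted p under 0.05, against 3.68%. Values ran from -0.64 for Ly6c2 to 0.95 for Klf4, with a median of -0.25 against 0.12 over all genes. KO treated samples are in both this and the first comparison, and WT vehicle samples are likewise shared, so these contrasts are not independent of each other. For the mean effects over both arms, 10.9% of all genes had an unadjusted p under 0.05 for the host and 16% for treatment. In the 6 contrasts other than KO treated against WT treated, DESeq2 and limma voom also called 0 of the 9.

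The libraries also differed within groups. The 2 KO vehicle libraries were far apart: all 9 genes were above their own mean over the 11 libraries in 275, and 1 of 9 was in 249. Among KO treated libraries, 263 had 0 of 9 genes above their mean, 276 had 3 and 257 had 4. Each WT treated library had 6 or 7 of 9 above the mean. Library 265 held the lowest value of 4 genes, with Ly86 and Cd68 far below their levels elsewhere, while Irf8 in that library lay between the other WT vehicle libraries.

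**Figure D3:**
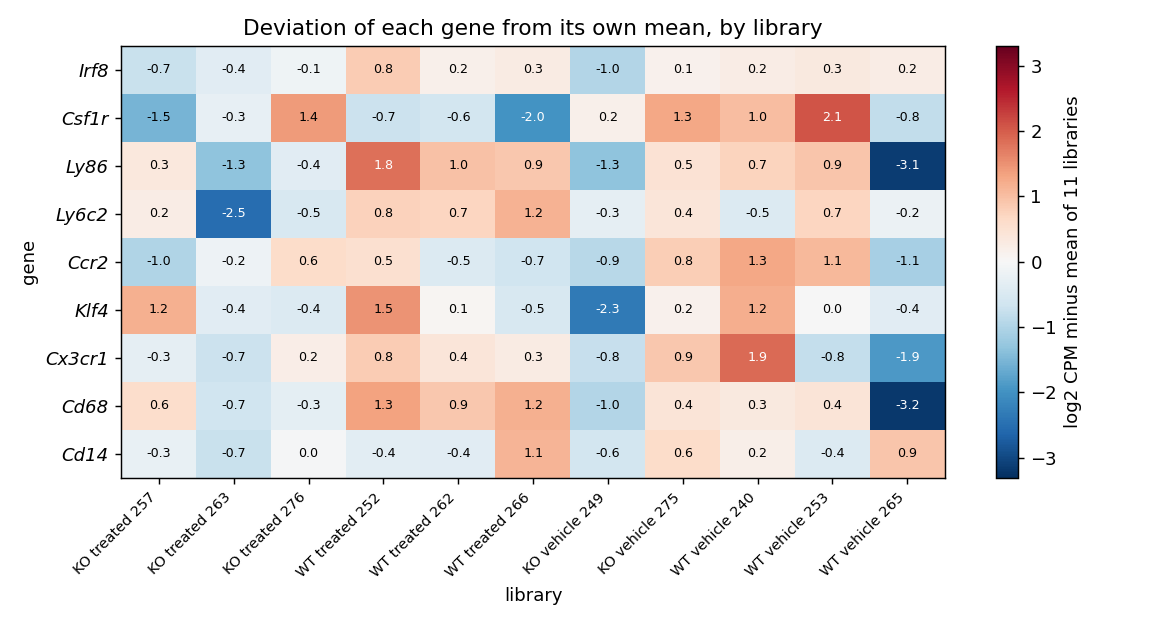
Log2 CPM of each gene minus its mean over the 11 libraries, by library, with red above and blue below the mean. Library 275 is above the mean for all 9 genes and library 263 for none. The WT treated columns are above the mean for Irf8, Ly86, Ly6c2, Cx3cr1 and Cd68 and below it for Csf1r.

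Over the 11 libraries, 29 of the 36 pairs of these genes had a positive Pearson correlation of log2 CPM, with a median of 0.38. The libraries share the depth and length differences given above, and the values are a description. Ly86 and Cd68 were the closest pair, with r = 0.97 and rho = 0.87 (n = 11), and r = 0.92 without the 2 libraries farthest from the median. Csf1r and Ccr2 had r = 0.78 and rho = 0.76, and r = 0.74 without the 2 farthest. Csf1r had r = -0.16 with Ly6c2 and -0.05 with Cd68. Irf8 and Ly86 had r = 0.44, which was 0.82 without libraries 253 and 265.

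The genes most like each of the 9 were searched among 8120 expressed genes by Pearson r over the 11 libraries. For Ly86 they were Ctss (r = 0.95), Ifi30 (0.94) and Vrk1 (0.94). Ctss and Ifi30 encode a protease and a reductase of the antigen-processing compartment. For Ly6c2 they were Elane (0.95), which encodes neutrophil elastase, Cst7 (0.94) and Atp6v0c (0.93). For Ccr2 they were Tlr2 (0.93), Stat2 (0.93) and Mpeg1 (0.92), of which Mpeg1 encodes a pore-forming protein of macrophages. For Irf8 they were Anxa5 (0.86), Hpcal1 (0.81) and Pld4 (0.80). Csf1r was closest to Hpse (0.96), Yme1l1 (0.95) and Slc25a22 (0.94), and Cx3cr1 to Ifngr2 (0.95), Commd8 (0.92) and Otulinl (0.90). Klf4 was closest to Ifi27l2a (0.91), Samhd1 (0.89) and Scaper (0.83). Cd68 was closest to Med31 (0.97), Pdcd10 (0.96) and Rnase6 (0.96), and Cd14 to Csf2ra (0.80), Mapk3 (0.80) and Flad1 (0.79).

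Other genes of the same pathways are described for KO treated against WT treated samples, as counts beside a median of 0.10 over all genes. None passed the test by edgeR in any list or contrast, and these values are not corrected for transcript length. Of 18 monocyte transcription factors 9 were higher and 9 lower, with a median of 0.11. Spi1, which encodes PU.1, had 230, 165 and 179 CPM in KO treated libraries, against 358, 355 and 596 CPM in WT treated libraries, which gave -1.19 ± 0.33 (SE) on the log2 scale and an adjusted p of 0.383. Id2, an inhibitor of basic helix-loop-helix factors, had 167, 132 and 61.5 CPM in KO treated against 656, 261 and 367 CPM in WT treated libraries, at -1.83 ± 0.51 (SE) and an adjusted p of 0.383. Zfp36l2, an mRNA-decay factor, was higher in each KO treated library, at 1.01 ± 0.37 (SE).

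Of 11 tested genes of the CSF receptors, their ligands and signalling partners, 8 were higher and 3 lower in KO treated than in WT treated samples, with a median of 0.51, while the list summed to 1114 to 1391 CPM in KO treated libraries and 1175 to 1879 CPM in WT treated libraries. Plcg2, a phospholipase that signals downstream of CSF1R, had 91.5, 213 and 172 CPM in KO treated against 81.8, 69.1 and 60.6 CPM in WT treated libraries, at 1.17 ± 0.33 (SE) and an adjusted p of 0.383. Csf2ra, the receptor chain for GM-CSF, was at -0.71 ± 0.33 (SE) with overlapping groups. The ligand Csf1 had at most 7.04 CPM in any library, and Il34 had counts only in library 240. Of 15 genes of endotoxin recognition 9 were higher and 6 lower, with a median of 0.27. By edgeR, the smallest p-values in this list were of Traf6, Irak1 and Tlr4, all higher. They were at 1.57 ± 0.75, 0.76 ± 0.41 and 1.65 ± 1.14 (SE), and of these only Irak1 had no overlap between groups. Cd180, the partner of MD-1, was lower without overlap, with 9.33, 4.63 and 3.07 CPM in KO treated against 13.98, 10.6 and 14.6 CPM in WT treated libraries. Of 12 tested chemokine and receptor genes 5 were higher and 7 lower, with a median of -0.35. The chemokine Ccl3 had 2.48, 4.28 and 2.56 CPM in KO treated against 12.4, 5.94 and 15.8 CPM in WT treated libraries, at -1.87 ± 0.78 (SE).

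Markers of classical and of patrolling monocytes or macrophages had medians on opposite sides of the median of all genes. Of 22 classical markers 14 were lower and 8 higher, with a median of -0.53. Plac8 had 1922, 458 and 790.0 CPM in KO treated against 2736, 1979 and 2427 CPM in WT treated libraries, at -1.17 ± 0.48 (SE) and an adjusted p of 0.439. Lyz2, which encodes lysozyme, was at -1.91 ± 0.71 (SE) with overlapping groups and an adjusted p of 0.434. Fn1 was higher without overlap, at 1.56, and Vcan at 2.71 and F13a1 at 1.63 were higher with overlapping groups. Without overlap 3 of the 22 were lower and 1 higher, beside 9.56% and 9.71% of all genes. Of 23 tested nonclassical and macrophage markers 14 were higher and 9 lower, with a median of 1.14. The summed level of the list stood the other way, at 684 to 1119 CPM in KO treated libraries and 954 to 1452 CPM in WT treated libraries, with overlap. The complement gene C1qc had 64.9, 19.1 and 37.7 CPM in KO treated against 5.29, 1.91 and 19.7 CPM in WT treated libraries, at 2.18 ± 0.90 (SE) and an adjusted p of 0.443. C1qa, Ace, Mertk and Msr1 were higher without overlap, of which the last 3 had at most 3.82 CPM in KO treated libraries, and Treml4 was lower without overlap. Of 18 lysosome genes 8 were higher and 10 lower, with a median of -0.20. Without overlap 6 were lower (among them Npc2, Cd63 and Ctsz) and none higher, beside 9.56% and 9.71% of all genes. The list summed to 2835 to 4650 CPM in KO treated libraries and 4190 to 5470 CPM in WT treated libraries, with overlap. Npc2, a cholesterol carrier, was at -1.07 ± 0.33 (SE) with an adjusted p of 0.405.

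**Figure D4:**
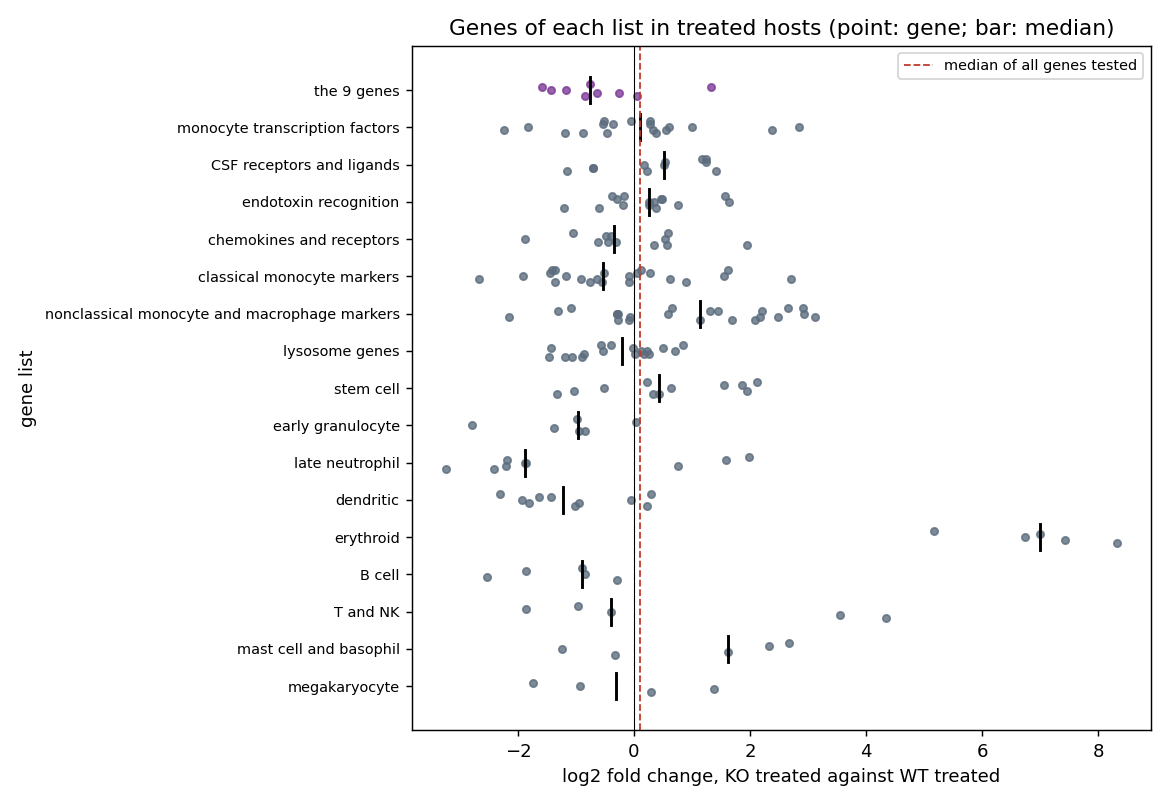
Log2 fold change in KO treated against WT treated samples of each gene (points) by list, with a black bar at each list's median and a dashed line at the median of all genes tested. The 9 genes have a median of -0.75, nonclassical and macrophage markers 1.14 and dendritic cell markers -1.22, and the erythroid markers lie farthest to the right.

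Markers of other cell types also differed between these libraries, and their part in the levels of the 9 genes was not tested. The summed level of 5 erythroid markers was 17974 to 86079 CPM in KO treated libraries, against 192 to 500 CPM in WT treated libraries, and 240 to 13962 CPM in KO vehicle libraries, against 49.2 to 839 CPM in WT vehicle libraries. The 10 dendritic cell markers summed to 1141 to 3456 CPM in KO treated libraries and 6475 to 16856 CPM in WT treated libraries. Of these, 8 were lower and 2 higher, and H2-Ab1, an antigen-presenting molecule, was at -2.31 ± 0.82 (SE) with an adjusted p of 0.432. Without overlap H2-Ab1, Cd74 and Cd209a were lower and none higher, beside 9.56% and 9.71% of all genes. Groups overlapped for Clec9a at -1.64, Xcr1 at -1.43 and Siglech at -0.95, and for the higher Zbtb46 at 0.29 and Itgax at 0.22. Which cells the summed level came from was not tested. The 6 early granulocyte markers summed to 4255 to 17466 CPM in KO treated libraries and 14417 to 33173 CPM in WT treated libraries, and the 9 late neutrophil markers to 6931 to 20938 CPM and 17752 to 124981 CPM in the same groups. Of the early granulocyte markers 1 was higher and 5 were lower, and of the late neutrophil markers 3 were higher and 6 lower. Library 263, which had the lowest Ly6c2, also had the lowest sum of early granulocyte markers. The 11 stem cell markers summed to 829 to 1575 CPM in KO treated libraries and 1099 to 1716 CPM in WT treated libraries. By gene they stood the other way, with 8 higher and 3 lower and a median of 0.44, against 0.10 over all genes. Kit was at 2.12 ± 0.68 (SE) with overlapping groups and an adjusted p of 0.406 in edgeR. All 5 erythroid markers had counts in each KO treated library.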

How the data were processed

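Raw read counts per Ensembl gene were used as deposited by the authors, as whole numbers without normalization, for 53700 genes. Per the submitters' processing notes, reads were handled with build GRCm39 and tools given with no order: HTSeq (version entered as 0.6.7), DESeq2, STAR 2.7.9a, bcl2fastq and Trim Galore 0.6.7. Per the labels' protocols, RNA from sorted cells was amplified with a SMARTer low-input kit, which does not keep strand. The annotation and strand setting are not given in the sources used here. The 5 HTSeq summary lines were left out, of which reads outside genes made up 5.98% to 30.4% of each library's total, ambiguous reads 2.34% to 6.31% and reads at several places 11.6% to 30.0%. Symbols came from a mouse table for 52093 genes, transcript lengths from GENCODE and promoters from RefSeq on GRCm38.p6, so only promoters have coordinates.

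In R 4.3.3, edgeR 4.0.16 kept 16639 genes with filterByExpr, scaled by TMM and fitted 1 quasi-likelihood model with the 4 groups. From it came 7 contrasts: the 4 comparisons between groups, the interaction, and the mean host and mean treatment effects. P-values were adjusted by Benjamini-Hochberg over all genes, with a threshold of 0.05. SE is the absolute log2 fold change over the square root of F, and intervals are 95% intervals from the same test. Alternatives used DESeq2 1.42.0 (size factors and Wald test), voom of limma 3.58.1, no filter, a transcript length trend removed per library (lowess, span 0.3), and libraries left out. Removing the length trend together with library 257 was chosen after seeing the data. The pipeline was also run on simulated counts, and its rate of recovering known changes is not given here. The biological coefficient of variation was 0.783, so a count of 0 genes called does not show that levels were equal.

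The 9 genes and the 16 gene lists were chosen with earlier results of these data known. A fold change with its SE is given for a gene of the 9 where its unadjusted p was under 0.05 or its groups did not overlap, and from each list for up to 3 genes with the smallest p, of which the text gives a part. Similar genes needed a mean log2 CPM of at least 3. Reads carried no molecular identifiers, so counts are not independent molecules.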

Additional observations from a re-analysis of the deposited data

How the results depend on the processing

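No paired analysis was possible because each library has a number of its own, shared with no library of another group. No direction reversed among the named fold changes of the 9 genes, and 204 alternative values also stayed on the same side of the threshold. The 3 exceptions were Ly86, Ly6c2 and Cd68 in KO treated against WT treated samples, which passed it by voom, so that 3 of the 9 were called there, beside 25.8% of all genes. No other alternative called any of the 9 in any contrast, the range when leaving out 1 library in turn being 0 to 0. The cause of the difference between tools was not tested.

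The count of genes called among all genes, 0 by edgeR in each contrast, did depend on the processing. For KO treated against WT treated samples it was 43 without the filter, 249 by DESeq2, 4301 by voom, 43 with the length trend removed and library 257 left out, and 0 to 1513 when leaving out 1 library, the highest without 257. In KO vehicle against WT vehicle it was 11 without the filter, 224 by DESeq2 and 0 to 85 when leaving out 1 library, the highest without 240. For WT treated against WT vehicle it was 215 without the filter, 1106 by DESeq2 and 0 to 1012 when leaving out 1 library. For KO treated against KO vehicle and for the interaction, DESeq2 called 23 and 58, and leaving out 1 library gave 0 to 0 and 0 to 1. For the mean host effect the counts were 83 without the filter, 366 by DESeq2, 13 by voom, 74 with the length trend and library 257 removed, and 0 to 1000 when leaving out 1 library. For the mean treatment effect they were 7 without the filter, 451 by DESeq2, 1 by voom and 0 to 0.

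Of the 9 genes, those without overlap between KO treated and WT treated samples were 5 to 6 when leaving out 1 library, beside 17.6% to 52.3% of all genes, and Irf8, Ly86, Ly6c2, Cx3cr1 and Cd68 were among them under each alternative run. In KO vehicle against WT vehicle the count of 1 became 2 with the length trend removed (23.9% of all genes), 5 without libraries 253 and 265 (68.3%, WT vehicle being 1 library), and 0 to 3 when leaving out 1 library (20.7% to 48.5%). Between WT treated and WT vehicle the count of 2 became 1 with DESeq2 size factors (27.7% of all genes), 0 with the length trend removed (21.3%, and 21.5% also without 257), 7 without 253 and 265 (61.3%), and 1 to 3 when leaving out 1 library (25.2% to 43.96%). In KO treated against KO vehicle the count of 0 became 1 with the length trend and library 257 removed (37.6% of all genes), and 0 to 6 when leaving out 1 library (22.4% to 45.8%), the highest without 249. Counts near such shares are no result about the 9 genes. Groups left with 1 library were assumed to vary like the others. Library 265 had the fewest counts assigned to genes, 8.13 M, and there Ly86 rested on 83 counts and Cx3cr1 on 27. Irf8 had 3536 counts in the same library. The part of depth in its low values was not tested.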

Other observations

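In WT treated against WT vehicle samples, the growth factor receptor pathway around Csf1r also had genes at lower levels, and none passed the test by edgeR. Of its 11 tested genes 8 were lower and 3 higher, with a median log2 fold change of -0.46 against 0.09 over all genes. By edgeR 5 of the 11 had an unadjusted p under 0.05, against 18.2% of all genes. Without overlap 4 were lower and 1 higher, beside 10.1% and 17.5% of all genes. Values in this section are not corrected for transcript length, and the groups differed in that trend. Its Spearman rho was -0.29 to -0.38 in WT treated and 0.03 to 0.10 in WT vehicle libraries. The part of length in these levels was not tested. Csf3r, the receptor for G-CSF, had 28.3, 33.3 and 57.8 CPM in WT treated libraries 252, 262 and 266, against 78.4, 297 and 111 CPM in WT vehicle libraries 240, 253 and 265, which gave -2.03 ± 0.60 (SE) on the log2 scale and an adjusted p of 0.177. Plcg2 was at -1.34 ± 0.34 (SE), with an adjusted p of 0.172, and the kinase gene Fes at -1.16 ± 0.32 (SE), with an adjusted p of 0.173. Irak3, an inhibitor of Toll-like receptor signalling, was at -1.86 ± 0.57 (SE), with an adjusted p of 0.177.

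Among macrophage markers in the same comparison, Cd36, a scavenger receptor, had 26.8, 14.5 and 9.19 CPM in WT treated libraries, against 0.711, 0.233 and 0 CPM in WT vehicle libraries. The mannose receptor gene Mrc1 stood the other way, with 9.68, 4.92 and 2.12 CPM in WT treated against 50.4, 19.8 and 17.0 CPM in WT vehicle libraries, at -2.38 ± 0.90 (SE) and an adjusted p of 0.212. Slamf1, a stem cell marker, had 0.217, 1.59 and 2.48 CPM in WT treated libraries and was at 0 in the 3 WT vehicle libraries. Of 10 dendritic cell markers 8 were higher and 2 lower, with a median of 0.97, and Bst2 was at 1.85 ± 0.58 (SE) with an adjusted p of 0.177.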
